A study of Homo sapiens with 4 samples.

Results

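Lysosomal acidification and hydrolase genes were examined for binding of the oestrogen-related receptor ERRα in the human cell line MDA-MB-231, which derives from a triple-negative breast cancer. The group is a list of 35 named genes, all of them among the 20037 protein-coding genes of a RefSeq gene table (GRCh38.p14) on chromosomes 1 to 22, X and Y. By role, 15 encode the vacuolar proton pump (5 of its membrane sector V0, 8 of its ATP-hydrolysing sector V1 and 2 accessory subunits), 7 are cathepsins and 6 are other hydrolases (GAA, GLA, GLB1, HEXA, NEU1 and TPP1). The last 7 are other lysosomal proteins, namely the membrane glycoproteins LAMP1 and LAMP2, the cholesterol transporters NPC1 and NPC2, the sphingolipid activator precursor PSAP, the ion channel MCOLN1 and the transcription factor TFEB. The data are ChIP-seq peak lists from 2 ERRα immunoprecipitations of untreated, formaldehyde-fixed cells, each called against the same 2 inputs, which are chromatin without immunoprecipitation. The labels do not say whether the replicates were separate cultures, so an SD here may be technical. The labels give a read number per library that was read as 29 M for each ERRα library and 10 M for each input. A peak was assigned to a gene when its summit lay inside the gene or within 10 kb of it.

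The lysosome is the acidic, degradative compartment of the cell. The proton pump is a rotary machine in which V1 hydrolyses ATP and V0 carries protons across the membrane, and the low pH that results is what the cathepsins and other acid hydrolases need to work. TFEB switches many of these genes on together by binding an E-box in their promoters. ERRα is an orphan nuclear receptor known for its control of mitochondrial energy genes, and it binds the nuclear receptor hexamer AGGTCA with a short 5′ extension.

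Of the 35 genes, 9 had a reproducible ERRα summit inside or within 10 kb (25.7%), where reproducible means matched between the replicates at an irreproducible discovery rate (IDR) of at most 0.05. Over all protein-coding genes the share was 18.3%. The cathepsins had 4 of 7 (57.1%), the other lysosomal proteins 3 of 7 (42.9%), the proton pump 2 of 15 (13.3%) and the other hydrolases 0 of 6. Within 10 kb the share of the proton pump was thus below the background and that of the cathepsins above it, in groups too small for more than a count. Among 10 other proteases outside the list, most of them further cathepsins, 1 had such a summit (10%), which is below the background. Where a summit was counted only for its nearest protein-coding gene, a rule added after the data were seen, 5 of the 35 remained (14.3%, background 14.6%). By class these were 3 of 7 other lysosomal proteins (42.9%), 2 of 7 cathepsins (28.6%), 0 of 15 pump genes and 0 of 6 other hydrolases. With all matched peaks, without the limit on IDR, 14 of the 35 had a summit (40%) against 30.8% of all protein-coding genes. In each replicate's own list the counts were 16 in replicate 1 (45.7%, background 38.9%) and 15 in replicate 2 (42.9%, background 35.9%). The median gene length was 24.3 kb in members and 24.1 kb over all protein-coding genes. It was 26.4 kb in members with a reproducible summit and 24.2 kb in the other members. A part of gene length in these shares was not tested. The gene table gives the extent of each gene, so exons and introns were not told apart.

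As a ratio to the background, the share of members was larger at gene starts than within 10 kb. For reproducible summits the gap in percentage points was about the same. A start with its strand was given for 26 members and 15842 protein-coding genes. A matched summit lay within 1 kb of the start in 8 of the 26 members (30.8%) against 8.17% of all genes, and a reproducible one in 3 (11.5%) against 4.01%. For matched summits the cathepsins had 4 of 6 genes (66.7%), the other lysosomal proteins 2 of 5 (40%), the proton pump 2 of 10 (20%) and the other hydrolases 0 of 5. For reproducible summits no class had more than 1 gene. The counts were 1 of 6 cathepsins (16.7%), 1 of 5 other lysosomal proteins (20%), 1 of 10 pump genes (10%) and 0 of 5 other hydrolases. The matched cathepsin summits at the starts of CTSC, CTSL and CTSZ failed the IDR limit. The shares of the pump rest on so few genes, at starts and within 10 kb, that neither is set apart from the background. These counts describe the list and were not tested, since the data hold 2 ChIP libraries and no read counts.

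**Figure D1:**
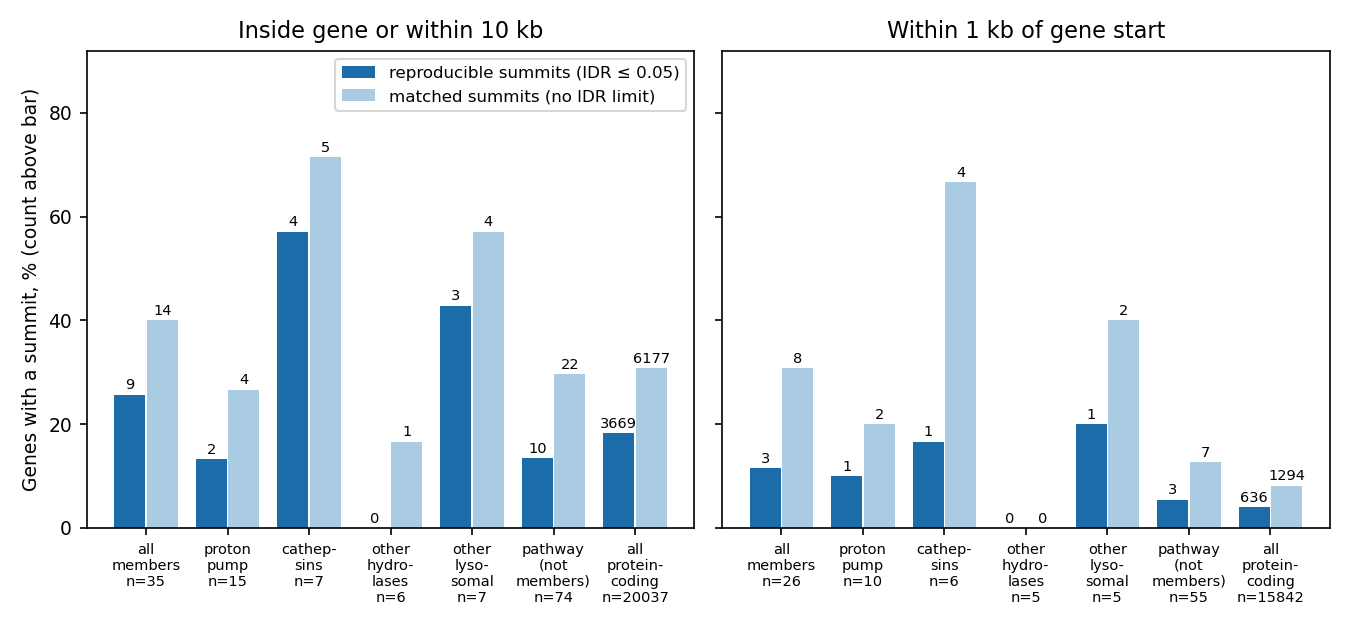
Share of genes with an ERRα summit inside the gene or within 10 kb (left) and within 1 kb of the gene start (right), in percent, for the members, their 4 classes, the other lysosomal pathway genes and all protein-coding genes, with dark bars for reproducible and light bars for matched summits and the count above each bar. The cathepsins stand highest for reproducible summits on the left, with 4 of 7, and for matched summits on the right, with 4 of 6. The other hydrolases have no reproducible summit. For reproducible summits on the right the cathepsins have 1 of 6, and the other lysosomal proteins stand highest with 1 of 5.

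The strongest ERRα peak of the group was at the start of CTSA, which encodes a serine carboxypeptidase that also shields the hydrolases GLB1 and NEU1 in a common complex. The fold over input, as the authors' peak caller gave it, was 28.99 in replicate 1 and 32.7 in replicate 2 (mean 30.8 ± 2.63, SD, n = 2). The peak spanned chr20:45890429-45891604 (GRCh38), and its summit lay 218 bp upstream of the CTSA start. Of the 5070 reproducible peaks of the series, 89.1% had a lower mean fold. CTSA shared the summit with its neighbours, since it lay inside NEURL2, 91 bp from an end of that gene, and 101 bp from an end of SPATA25. The 250 bases upstream of the CTSA start (RefSeq, chr20:45891085-45891334, plus strand) contain the summit and are shown with motif matches in capitals.

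CTSA promoter: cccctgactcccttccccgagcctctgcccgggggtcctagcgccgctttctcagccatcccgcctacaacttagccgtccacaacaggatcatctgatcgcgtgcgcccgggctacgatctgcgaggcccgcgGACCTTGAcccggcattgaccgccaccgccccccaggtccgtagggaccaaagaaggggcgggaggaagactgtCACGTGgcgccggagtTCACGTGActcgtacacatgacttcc

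In capitals are, from 5′ to 3′, a match to the ERR response element without its last base (TCAAGGTC, here on the minus strand as GACCTTGA), at bases 116 to 109 before the start, an E-box (CACGTG) at bases 42 to 37, and the longer E-box bound by TFEB (TCACGTGA) at bases 26 to 19. The centre of the ERR match lay 106 bp from the summit. This shortened ERR word was added after the CTSA promoter had been seen. It occurs in 104 of 15842 promoter windows of 300 bases (0.656%), and among members in CTSA and in NPC1. In NPC1 it stood at bases 96 to 89 before the start, 3.08 kb from the nearest matched summit.

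Among the other cathepsins, CTSC, CTSD and CTSZ had reproducible summits, and these lay away from the gene starts. CTSC is a dipeptidyl peptidase that activates serine proteases of immune cell granules, and its peak (chr11:88320965-88321691) lay inside the gene, 16.4 kb downstream of the start. Its fold was 14.7 in replicate 1 and 18.6 in replicate 2 (mean 16.7 ± 2.79, SD, n = 2). CTSD, the main aspartic protease of the lysosome, had a peak of 12.8 and 12.01 inside the gene, 7.16 kb downstream of its start (chr11:1756356-1757355, mean 12.4 ± 0.549, SD, n = 2). A further peak 8.64 kb upstream of CTSD had folds of 13.7 and 9.27 (chr11:1772199-1772834, mean 11.5 ± 3.14, SD, n = 2). The means of the 2 CTSD peaks thus differed by less than the larger SD, though by more than the smaller one. The peak assigned to CTSZ, a cysteine carboxypeptidase, lay 9.82 kb upstream of it and inside the tubulin gene TUBB1, 638 bp from an end of that gene (chr20:59016714-59017730). Its folds were 16.7 and 14.3 (mean 15.5 ± 1.72, SD, n = 2).

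CTSC, CTSZ, CTSD and the cysteine protease gene CTSL also had weak matched peaks at or near the start, and none of these met the IDR limit. In CTSL the summit was 16 bp upstream of the start, with folds of 5.12 and 6.92. In CTSC it was 205 bp downstream of the start (6.72 and 5.75), and in CTSZ 351 bp downstream (5.43 and 4.82). The corresponding CTSD summit was 1.44 kb downstream of the start (5.12 and 8.12). CTSB and CTSH had no peak in any list, and their nearest reproducible summits were 375 kb and 70.5 kb away.

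Of the proton pump, ATP6V0D1 and ATP6V1A had reproducible summits. ATP6V0D1 encodes subunit d, which joins the V0 ring to the stalk of V1. Its stronger peak (chr16:67481407-67482175) had folds of 12.7 and 16.1 (mean 14.4 ± 2.38, SD, n = 2) and a summit 713 bp upstream of the start. That summit lay inside the divergent non-coding gene ATP6V0D1-DT and 701 bp from an end of AGRP, so AGRP was the nearest protein-coding gene. The other peak was 8.40 kb beyond the far end of ATP6V0D1 and 181 bp from an end of HSD11B2, an enzyme of glucocorticoid metabolism, with folds of 10.4 and 15.3 (chr16:67429103-67430098, mean 12.9 ± 3.45, SD, n = 2). The 250 bases upstream of ATP6V0D1 (chr16:67481158-67481407, minus strand) hold 1 E-box of the TFEB type, at bases 60 to 53 before the start, shown in capitals because the gene is the pump subunit with a reproducible summit near its start.

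ATP6V0D1 promoter: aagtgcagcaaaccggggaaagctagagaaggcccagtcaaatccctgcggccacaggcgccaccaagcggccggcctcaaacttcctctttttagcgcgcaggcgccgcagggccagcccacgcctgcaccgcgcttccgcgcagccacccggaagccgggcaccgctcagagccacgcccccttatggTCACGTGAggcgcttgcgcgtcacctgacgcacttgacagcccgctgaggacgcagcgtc

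The summit lay upstream of this stretch, 657 bp from the E-box. The window of 300 bases also held the nuclear receptor hexamer AGGTCA, downstream of the start.

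ATP6V1A encodes the catalytic subunit of V1, and its reproducible peak was the second strongest of the group by mean fold, with 21.5 and 19.6 (chr3:113736622-113737635, mean 20.5 ± 1.37, SD, n = 2). It lay inside NAA50, an N-terminal acetyltransferase gene, 9.88 kb from ATP6V1A and just within the limit of 10 kb. A weaker peak 612 bp from the lower end of ATP6V1A and 174 bp from an end of NAA50 had folds of 7.91 and 5.11 and failed the IDR limit. Counting only summits for which the member itself was a nearest protein-coding gene, no proton pump gene kept a reproducible summit, and 5 of the 9 members did (CTSC, CTSD, LAMP1, MCOLN1 and TFEB). Of the 10 further lysosomal pathway genes described last, 9 kept a summit (12.2% of 74). The shares under this rule were 14.3% for the 35 members and 14.6% for all protein-coding genes.

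The other pump subunits had weak peaks or none. ATP6V0B, a proteolipid of the rotor ring, had a matched summit 332 bp upstream of its start with folds of 6.04 and 7.22. ATP6V0A1, which forms part of the proton path, had a matched peak inside the gene, 61.4 kb downstream of the start (4.74 and 5.46). ATP6V0C, the main rotor proteolipid, had a peak in replicate 2 alone, 1.23 kb upstream of the start with a fold of 6.01. ATP6V0E1 had no peak, nor did 7 of the 8 V1 genes (ATP6V1B2, ATP6V1C1, ATP6V1D, ATP6V1E1, ATP6V1F, ATP6V1G1 and ATP6V1H) and both accessory subunits, ATP6AP1 and ATP6AP2. In the matched list V0 therefore had 3 of 5 genes with a summit and V1 had 1 of 8, against 30.8% of all protein-coding genes. The nearest reproducible summit was 27.8 kb from ATP6V0E1, 33.5 kb from ATP6V1E1 and 1571 kb from ATP6V1C1, which was the farthest of all members.

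TFEB itself, the regulator of the lysosomal gene set, had 2 reproducible peaks. The stronger lay inside the gene, 21.8 kb downstream of the start, with folds of 16.8 and 19.5 (chr6:41713438-41714149, mean 18.2 ± 1.89, SD, n = 2). The other lay 1.14 kb beyond the far end of the gene, with 12.8 and 13.2 (chr6:41682287-41683674, mean 13.0 ± 0.262, SD, n = 2). In both replicates the peak inside the gene was the higher of the 2, and for both TFEB was the nearest protein-coding gene. One more matched peak, 301 bp downstream of the start, reached 5.66 and 5.21 and failed the IDR limit.

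MCOLN1 encodes a calcium channel of the lysosomal membrane, and its reproducible peak lay inside the gene, 7.14 kb downstream of the start, with folds of 10.5 and 12.6 (chr19:7529276-7530064, mean 11.5 ± 1.48, SD, n = 2). LAMP1, a main glycoprotein of the lysosomal membrane, had a reproducible peak with its summit 535 bp upstream of the start (chr13:113296361-113297070). Its folds were 8.37 and 8.06 (mean 8.21 ± 0.223, SD, n = 2), and 5.42% of the reproducible peaks of the series were lower. The LAMP1 score on the IDR scale was 649, where 540 is the limit. Among members it was the reproducible peak nearest to the limit, and it is lost at an IDR of 0.01. The 250 bases upstream of LAMP1 (chr13:113296989-113297238, plus strand) are shown because LAMP1 had the most E-boxes of any member window (6), in capitals.

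LAMP1 promoter: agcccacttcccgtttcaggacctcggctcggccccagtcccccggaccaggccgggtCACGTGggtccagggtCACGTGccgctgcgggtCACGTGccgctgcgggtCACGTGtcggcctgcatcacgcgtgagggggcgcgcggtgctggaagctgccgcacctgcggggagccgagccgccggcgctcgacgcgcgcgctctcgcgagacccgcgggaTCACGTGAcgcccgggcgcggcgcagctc

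The first 4 capital stretches are E-boxes at bases 192 to 137 before the start, and the last, at bases 29 to 22, is of the TFEB type. A further match of the TFEB type crosses the start and is not in the stretch shown. The LAMP1 summit lay 346 bp from the nearest of these E-boxes.

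NPC1, which exports cholesterol from the lysosome, had 3 matched peaks inside the gene, and none met the IDR limit. The strongest, 44.3 kb downstream of the start, had folds of 7.29 and 8.84 and a score of 499, the closest below the limit among members. In replicate 1 alone NPC1 had 2 more peaks, of which 1 had its summit 30 bp upstream of the start (fold 6.14). NPC2, the soluble partner of NPC1, had a peak in replicate 1 alone, inside the gene (fold 5.19). LAMP2 and PSAP had no peak, and their nearest reproducible summits were 16.7 kb and 49.1 kb away.

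The other hydrolases had the least. GLA, the enzyme deficient in Fabry disease, had a matched peak 7.12 kb beyond its far end with folds of 6.47 and 8.46, but its summit lay inside BTK and 111 bp from an end of that gene. TPP1, a tripeptidyl peptidase, had a peak in replicate 1 alone (fold 4.24), 1.94 kb downstream of its start. GAA, GLB1, HEXA and NEU1, which cleave glycogen, galactosides, gangliosides and bound sialic acid, had no peak in any list on the chromosomes used. The nearest reproducible summit was 13.2 kb from GLB1, which was the member closest outside the limit of 10 kb, and 57.4 kb from GAA, 109.6 kb from HEXA and 1110.3 kb from NEU1. NEU1 lies in the major histocompatibility complex (MHC) region, where few peaks were listed. From 28.5 to 33.5 Mb of chromosome 6, replicate 1 had 5 summits and replicate 2 had 4, against 37 and 35 in the 5 Mb below and 76 and 78 in the 5 Mb above. Further peaks lay on contigs named for the MHC, 27 in replicate 1 and 24 in replicate 2, and the genes under them were not analysed here. Whether any of them belongs to NEU1 was not tested.

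**Figure D2:**
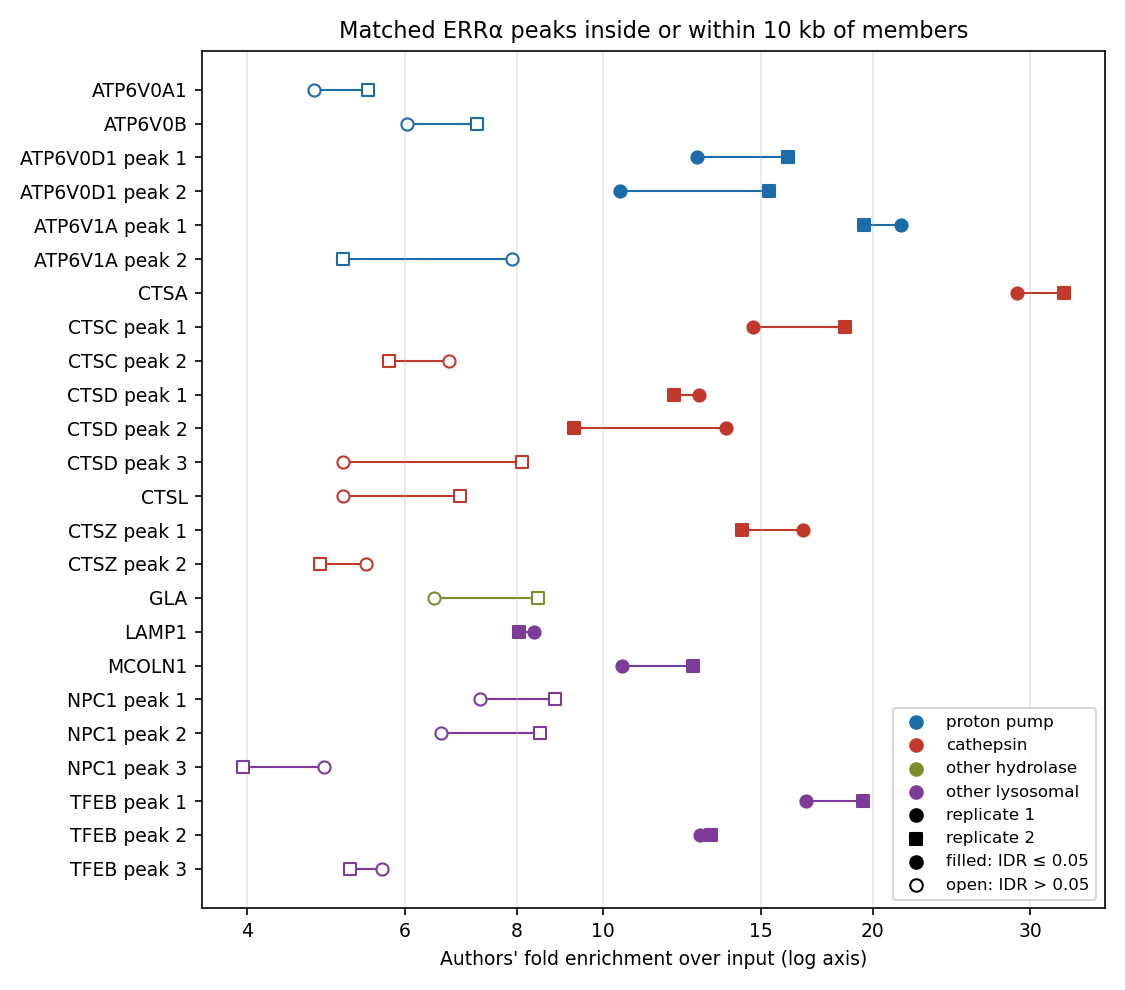
Authors' fold enrichment over input on a log axis for the 24 matched peaks inside or within 10 kb of members, with circles for replicate 1, squares for replicate 2, filled symbols for an IDR of at most 0.05, open ones above it, and colours by class. CTSA lies highest, at 28.99 and 32.7, and all 12 peaks that failed the IDR limit have means from 4.42 to 8.06.

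Across the group, 24 matched peaks belonged to 14 genes, and 12 of these peaks, in 9 genes, were reproducible. The median of their mean folds was 13.7, with a range from 8.21 to 30.8, against a median of 12.9 for all 5070 reproducible peaks. In 72 of these 5070 the fold summed several called peaks, and over the other 4998 the median was also 12.9 and the highest mean 311. Peaks of members were thus of ordinary height, and 7 of the 12 were above the median of the series. The 12 matched peaks that failed had a median of 6.37, and so did all failed peaks of the series. Replicate 2 was the higher in 7 of the 12 reproducible peaks and replicate 1 in 5, with ratios from 0.676 to 1.47. Over all 5070 reproducible peaks replicate 2 was the higher in 42.7%. The replicate summits lay 16 to 102 bp apart. Both replicates were set against the same inputs and reproducible peaks were chosen for their agreement, so their like heights are no separate evidence.

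By the strongest peak of each gene the order was CTSA, ATP6V1A, TFEB, CTSC, CTSZ, ATP6V0D1, CTSD, MCOLN1 and LAMP1. CTSA exceeded ATP6V1A by 1.501 times, with both of its replicates above both of the other. ATP6V1A was also above TFEB in all replicates, by 1.13 times and with 19.6 next to 19.5 at their closest, and MCOLN1 above LAMP1, by 1.40 times. Each other pair of neighbours in this order overlapped between replicates.

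Peaks near gene starts were mostly weak. Of the 22 matched peaks whose gene had a known start, 8 lay within 1 kb of it, and 3 of these were reproducible (CTSA, ATP6V0D1 and LAMP1). The 5 others, at ATP6V0B, CTSL, CTSC, CTSZ and TFEB, had mean folds from 5.12 to 6.63. Of the 14 peaks farther away, 8 were reproducible. The median of the mean folds was 6.43 within 1 kb and 11.5 farther away. Over all matched peaks of the series the medians were 8.57 within 1 kb of any protein-coding start and 8.44 elsewhere, and 49.3% and 50.6% of the peaks were reproducible. The member peaks were split by the start of the member alone, so a peak near the start of another gene counted as farther away. The series values are therefore no like comparison.

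**Figure D3:**
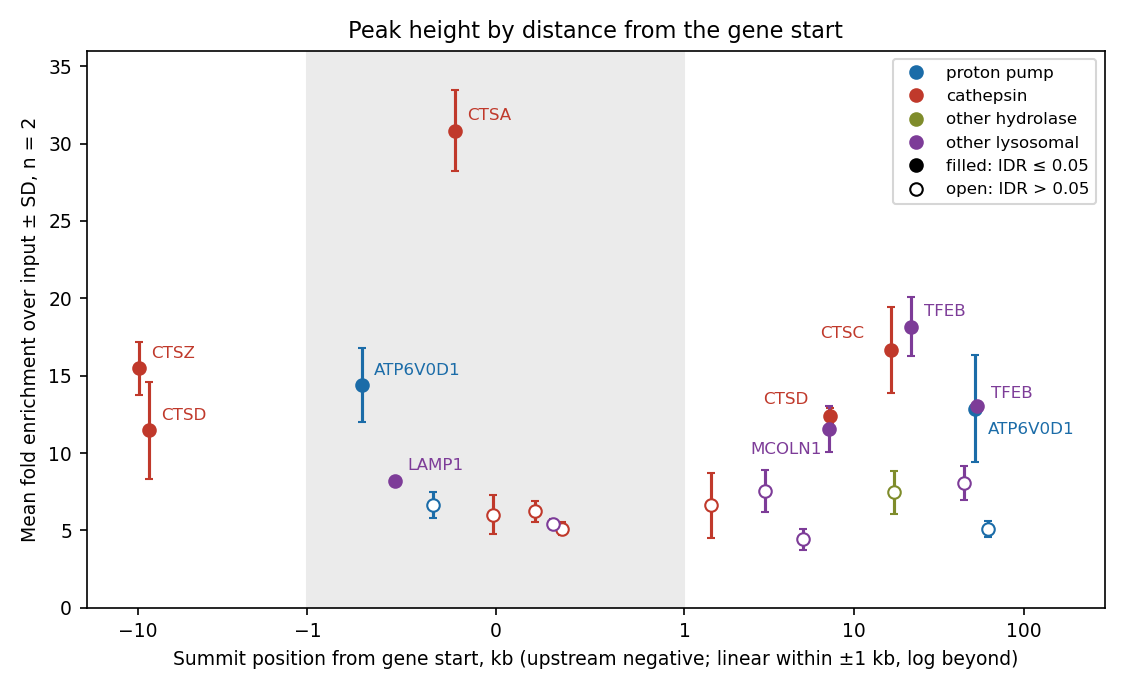
Mean fold enrichment with its SD (n = 2) against the position of the summit from the gene start in kb (linear within 1 kb, log beyond), for the 22 matched peaks of members with a known start, with filled symbols for an IDR of at most 0.05 and the band of 1 kb on either side shaded. Within the band CTSA, ATP6V0D1 and LAMP1 are filled and the 5 open symbols lie between 5.12 and 6.63.

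E-boxes were frequent in the promoters of lysosomal genes, members and others alike. Of the 26 member windows, 9 (34.6%) held a CACGTG, as did 12 of 55 windows of other lysosomal pathway genes (21.8%), against 8.88% of 15842. These windows run from 250 bases before to 50 after the start, and both strands were searched. The longer TCACGTGA, which contains CACGTG, was found in 6 of 26 members (23.1%) and 6 of 55 other pathway genes (10.9%), against 1.43% of all genes. TFEB is known to act on lysosomal genes through such boxes, so a high share was known for genes of this kind. The 6 genes were CTSA, ATP6V0D1, LAMP1, ATP6V1G1, GAA and MCOLN1, and they include all 3 with a reproducible summit within 1 kb of the start and 3 of the 23 without one. Over all genes with a reproducible summit within 1 kb of the start, 14 of 636 (2.2%) had the longer box. Of the 123 promoter windows that themselves hold a reproducible summit, 1 had it (0.813%), which is below the share of all genes. Among members with a matched summit within 1 kb of the start, 3 of 8 had it. ATP6V0E2, SMPD1 and TCIRG1, the other pathway genes with a reproducible summit there, did not. The boxes of the 3 genes without an ERRα summit near the start are shown for comparison, in capitals within 30 bases.

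ATP6V1G1: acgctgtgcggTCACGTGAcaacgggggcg

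GAA: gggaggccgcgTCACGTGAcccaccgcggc

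MCOLN1: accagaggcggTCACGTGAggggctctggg

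They lie on the plus strand at chr9:114587699-114587728, chr17:80101493-80101522 and chr19:7522571-7522600, and the nearest matched summits were 24.3 kb, 57.4 kb and 7.18 kb away. GAA and MCOLN1 each held 1 more box of this type, nearer to the start.

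The full ERR response element (TCAAGGTCA) was in no member promoter, and neither was the form with a free second base (TNAAGGTCA). These words are rare, in 0.24% and 0.638% of all promoter windows, and were found in 5.69% and 10.6% of the 123 windows that hold a reproducible summit. The hexamer AGGTCA alone was in 3 of 26 members (11.5%), the pump genes ATP6V0A1, ATP6V0D1 and ATP6V1E1, against 11.7% of all windows and 50.4% of those with a reproducible summit. Among members only the CTSA window holds such a summit, so the windows with a summit are no like comparison for the 26. In the 636 genes with a reproducible summit within 1 kb of the start, AGGTCA was in 19%, TCAAGGTCA in 1.26% and TNAAGGTCA in 2.83%. The AP-1 site (TGANTCA) was in none of the 26 and in 5.75% of all. Letters absent from these windows say nothing about the rest of a peak, and no sequence was used here for the summits farther from a start.

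**Figure D4:**
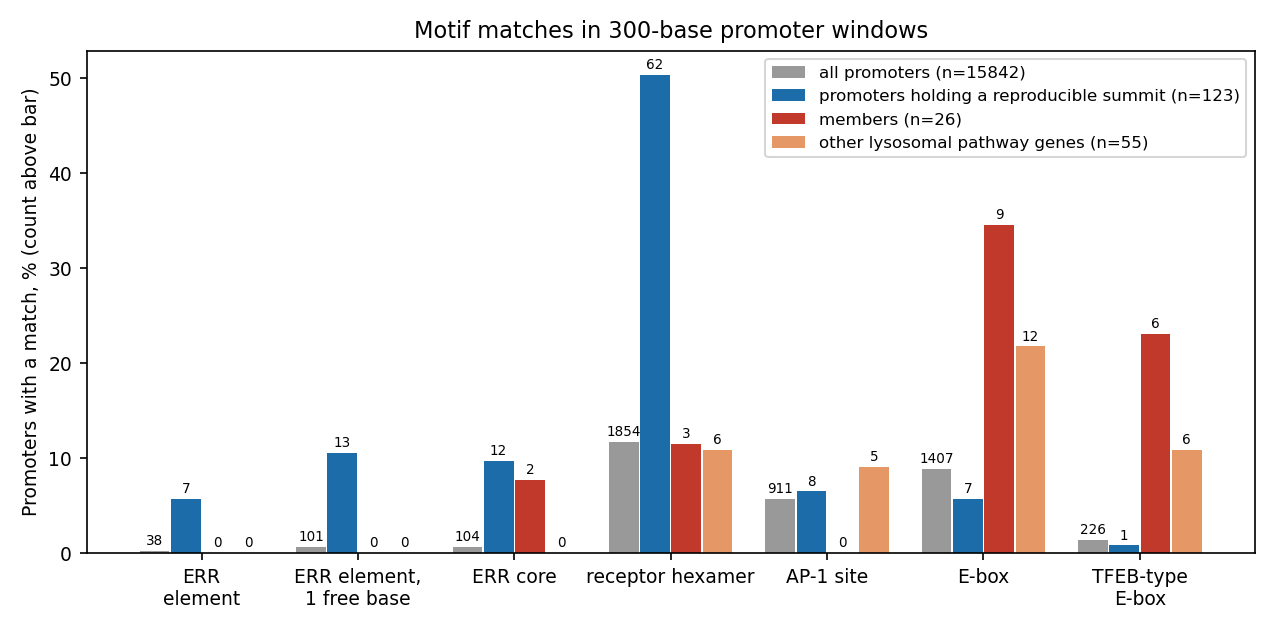
Share of promoter windows with a match to each motif, in percent with the count above each bar, for all protein-coding genes, the 123 windows that hold a reproducible summit, the 26 members and 55 other lysosomal pathway genes. The receptor hexamer (AGGTCA) stands highest where a summit is present (62 of 123), and E-boxes stand highest in members (9 of 26).

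Of 74 further lysosomal pathway genes, 10 had a reproducible summit inside or within 10 kb (13.5%, background 18.3%). A matched one was found for 22 (29.7%), near the background of 30.8%. In the own lists of the replicates the counts were 32 in replicate 1 (43.2%, background 38.9%) and 26 in replicate 2 (35.1%, background 35.9%). Within 1 kb of the start, 3 of 55 had a reproducible summit (5.45%, background 4.01%) and 7 of 55 a matched one (12.7%, background 8.17%). Some of their peaks were higher than any of the members. CTNS, which exports cystine from the lysosome, had a peak inside the gene with folds of 82.2 and 85.1 (mean 83.6 ± 2.09, SD, n = 2). CD63, a tetraspanin of late endosomes, had one 447 bp outside the gene, with 49.9 and 39.9 (mean 44.9 ± 7.05, SD, n = 2). TCIRG1 encodes another form of the V0 subunit a than ATP6V0A1, and its peaks were at 42.4 and 42.1 inside the gene and at 13.98 and 14.3 inside the neighbouring gene NDUFS8. A matched region whose summit lay 643 bp upstream of the TCIRG1 start pooled 2 called peaks in each replicate, and the stronger of these had folds of 14.3 in replicate 1 and 20.7 in replicate 2. Near starts, SMPD1, the acid sphingomyelinase, had a summit 212 bp upstream (8.74 and 10.0), and ATP6V0E2, a second form of the V0 subunit e, one 119 bp upstream (7.61 and 9.27). Of the 17 other pump isoforms and assembly factors, 3 had a reproducible summit (TCIRG1, ATP6V0E2 and WDR7), and none of 5 further regulators did. The 10 other proteases, most of them further cathepsins, had 1 gene with a reproducible summit (10%, background 18.3%) and 2 with a matched one (20%, background 30.8%). The reproducible one was assigned to CTSW and lay inside FOSL1.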

How the data were processed

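ERRα ChIP-seq of 2 replicates against 2 inputs was used as deposited peak lists. The submitters' processing notes name MACS2 2.2.6 as well as Bowtie2 2.3.5, the build hg38, Trim Galore 0.6.5, deepTools, SAMtools and Picard. No source used here gives their settings. The deposited fold enrichment (a ratio), −log10 p and q, and peak score were made by the authors for each replicate. The deposited IDR score of the list of matched peaks was not limited by the authors (154 to 1000), and 540 (an IDR of 0.05) was applied here, which left 5070 of 10059 peaks on chromosomes 1 to 22, X and Y, from 14072 in replicate 1 and 12659 in replicate 2. Matched folds of members each came from 1 peak per replicate. Read depth per peak was not used here, and with n = 2 an SD is imprecise.

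Summits were assigned to genes with Python 3.11.15 and pandas 2.3.3, a step tested on simulated summits. Starts and promoter windows came from RefSeq (26 of 35 members). The members and lists were chosen with earlier results of these data known, and genes were named as follows: members with a reproducible summit by their strongest peak, the others by the peak nearest a gene end, and pathway genes with a reproducible summit within 1 kb of an end or among the 4 highest, of which 1 is not reported here. No test was made over genes or motifs. Motif matches were counted on both strands. Of the 74 pathway genes, 2 were found by an older symbol.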

Additional observations from a re-analysis of the deposited data

Results flagged for a closer look

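Peaks on contigs named for the MHC were outside all comparisons, which used chromosomes 1 to 22, X and Y. Replicate 1 had 27 such peaks, on 6 contigs, with folds from 4.57 to 26.6, and replicate 2 had 24, on 6 contigs, with folds from 5.24 to 28.6. The same region of chromosome 6 itself, from 28.5 to 33.5 Mb, held 5 and 4 summits. NEU1 is the member in this region. Which genes lie under the contig peaks was not analysed here.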

How the results depend on the processing

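The 9 members with a reproducible summit became 4 with summits inside the gene only, 3 within 1 kb of the start, 14 with all matched peaks, 5 with summits nearest to the member, and 15 to 16 in the own list of a single replicate. The backgrounds under the first 4 of these settings were 11.5%, 3.92%, 30.8% and 14.6%. For the windows of 5 kb and 25 kb used below they were 15.8% and 25.1%. The 2 proton pump genes became 0 inside genes, 1 within 5 kb, 1 near the start, 4 with all matched peaks, 0 with nearest summits, and 4 to 5 in the list of 1 replicate. The 4 cathepsins became 2 inside genes, 1 near the start, 2 with nearest summits and 5 in the list of either replicate. The 3 other lysosomal genes became 1 near the start and 4 to 5 in the list of 1 replicate. The 0 other hydrolases became 1 within 25 kb, 1 with all matched peaks and 1 to 2 in the list of 1 replicate. The 10 further pathway genes became 6 inside genes, 3 near the start, 22 with all matched peaks and 26 to 32 in the list of 1 replicate. These settings take in fewer or more summits by construction. An IDR of 0.01, a −log10 q of at least 5 in both replicates and overlap in place of the summit left all 6 counts within 1.5 times. With n = 2, leaving out a replicate says nothing about the stability of a fold, since each value lies at a fixed share of the SD from their mean. No paired analysis was possible because the comparison rests on peak lists with no test over samples, and the inputs have no list of their own.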
